A study of Mus musculus with 2 samples.

Results

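Bone morphogenetic protein (BMP) family ligands and their receptors were followed across the cell types of the newborn mouse ovary, to see which cells carry the transcripts of the signal and which carry those of the receptors. The ligands were Gdf9, Bmp15, Bmp2, Bmp4 and Bmp7. The receptors were the type I receptors Bmpr1a, Bmpr1b and Acvr1 and the type II receptor Bmpr2. These 9 genes were chosen by name, and all 9 were among the 14268 genes with enough counts to be tested. The cells came from CD1 mice on postnatal day 2, and 2 single-cell RNA libraries were made from dissociated whole ovaries, each from 6 ovaries of 3 pups of 1 female. No treatment or genotype was compared, so the comparisons are between cell types, and the libraries are the replicates (n = 2). The cells of the pups were pooled, so animals within a library cannot be separated.

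GDF9 and BMP15 are growth factors of the oocyte, known for their effects on granulosa cells of the growing follicle. BMP2, BMP4 and BMP7 are ligands of somatic ovarian cells. A BMP dimer binds a complex of type I and type II receptors. The type I receptor then phosphorylates SMAD1, SMAD5 or SMAD8, which act with SMAD4 on target genes such as Id1, Id2 and Id3. GDF9 signals through BMPR2 with TGFBR1 and SMAD2 or SMAD3, whereas BMP15 uses BMPR2 with BMPR1B.

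The deposited values were counts of unique molecular identifiers (UMIs), each of which stands for 1 captured transcript. The libraries held 4094 and 4847 cells, of which 3631 and 4251 were kept and given a cell type by marker genes in clusters formed without the 9 genes and without the other BMP pathway genes. UMIs were summed per type and library. Germ-like cells numbered 240 and 691 in replicates 1 and 2, granulosa-like cells 1665 and 622, interstitial-like cells 1397 and 2498, and mesothelial-like cells 185 and 291. Endothelial-like cells numbered 60 and 33, perivascular-like cells 51 and 52, and immune-like cells 33 and 64. All 9 germ markers were highest in germ-like cells, all 8 interstitial, 7 mesothelial and 7 endothelial markers were highest in their own types, but only 4 of 7 granulosa markers were. Wnt6, Irx3 and Kitl were highest in mesothelial-like cells, where the granulosa markers summed to 827 and 783 UMIs per 1000000 (CPM), against 1853 and 1448 in granulosa-like cells. The libraries also differed in makeup. Germ-like cells were 6.59% of replicate 1 and 15.8% of replicate 2, and a germ-like cluster of 450 cells had 438 from replicate 2 whereas another of 210 had 199 from replicate 1. The germ-like cells also included clusters of little RNA, with 28 and 226 cells (median 2481 UMIs) and with 1 and 16 cells (median 5050 UMIs). Median depth was 76561 and 46648 UMIs per germ-like cell, 9812 and 9172 per granulosa-like cell, and 6515 and 5004.5 per interstitial-like cell. The libraries shared 21 cell barcodes.

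Promoter sequence is shown for 3 genes with unlike distributions over the cell types, because sequence features can then be set beside them: Bmp15, with nearly all of its UMIs in germ-like cells, Bmpr1b, found in germ-like, granulosa-like and mesothelial-like cells, and Bmpr1a, found widely. Each covers 250 bases before and 50 bases after the start of transcription, from RefSeq on GRCm38.p6, and 6 of the 9 genes had an entry. The Bmp15 window is chrX:6320675-6320974 on the minus strand, with an E-box (CANNTG) and a TAATTA in capitals. The Bmpr1b window, at the first of its 3 listed starts, is chr3:141982215-141982514 on the minus strand, and the Bmpr1a window is chr14:34502497-34502796 on the minus strand. In these latter sequences the capitals mark CG dinucleotides.
Bmp15: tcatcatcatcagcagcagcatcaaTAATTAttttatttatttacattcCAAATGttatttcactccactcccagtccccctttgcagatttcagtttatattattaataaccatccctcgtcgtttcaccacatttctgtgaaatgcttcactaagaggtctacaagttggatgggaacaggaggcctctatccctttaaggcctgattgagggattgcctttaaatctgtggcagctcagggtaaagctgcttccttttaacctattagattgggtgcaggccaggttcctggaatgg
Bmpr1b: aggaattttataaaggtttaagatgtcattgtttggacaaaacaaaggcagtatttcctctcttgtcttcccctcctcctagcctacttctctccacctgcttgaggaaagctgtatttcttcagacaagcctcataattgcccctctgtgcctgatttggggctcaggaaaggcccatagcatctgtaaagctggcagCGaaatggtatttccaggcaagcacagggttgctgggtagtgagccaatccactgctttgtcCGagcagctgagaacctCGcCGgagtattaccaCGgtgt
Bmpr1a: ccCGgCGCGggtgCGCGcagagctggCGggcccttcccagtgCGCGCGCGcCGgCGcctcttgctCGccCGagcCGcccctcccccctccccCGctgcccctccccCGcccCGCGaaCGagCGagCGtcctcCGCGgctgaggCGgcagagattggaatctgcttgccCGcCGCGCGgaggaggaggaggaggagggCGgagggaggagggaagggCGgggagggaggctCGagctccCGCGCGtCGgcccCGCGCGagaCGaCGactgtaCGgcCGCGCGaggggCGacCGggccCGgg
The Bmp15 window held 2 CG dinucleotides and the Bmpr1b window 5, against a median of 7 in 27025 promoter windows of the same length (quartiles 3 and 21). The Bmpr1a window held 48 and that of Acvr1 51, more than 98.8% and 99.3% of all windows. Bmpr2 had 23 and Bmp4 had 12. All 3 motifs were searched on both strands. The CANNTG of Bmp15 began at position -201 from the start, and a CANNTG occurs in 72.1% of all windows. The Bmpr1b and Bmp4 windows each held 3. TAATTA, at position -225 of Bmp15 and not overlapping the CANNTG, occurs in 5.31%, and TAATTG, at position -115 of the Bmpr1b window shown, in 8.15%. The windows at the other listed starts of Bmpr1b held 0 TAATTG each, and 0 and 1 CANNTG. Which start is used in these cells was not tested. A match of these letters is a description of the window and not a binding site.

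Gdf9 (ENSMUSG00000018238, chromosome 11, 53431023 to 53437904, GRCm38), which encodes an oocyte growth factor, was found almost wholly in germ-like cells. Levels are given as CPM after TMM scaling, which adjusts for differences in library composition. They compare cell types for 1 gene and not 1 gene with another, because counts were not set against transcript length. Gdf9 stood at 448 and 403 in the germ-like cells of replicates 1 and 2. It was 2.09 and 2.05 in granulosa-like, 2.27 and 3.17 in interstitial-like, 4.91 and 3.90 in mesothelial-like, 2.12 and 7.33 in endothelial-like and 0 and 8.42 in immune-like cells, and 0 in the perivascular-like cells of both libraries. Both germ-like values were far above every other value, so the groups did not overlap. The log2 difference between germ-like and granulosa-like cells was 7.67 (standard error 0.30), with an adjusted p of 3.75e-09 by edgeR's quasi-likelihood test. Germ-like cells held 98.8% and 99.1% of the Gdf9 UMIs of the named cells. Among somatic types no neighbouring pair in the order of levels passed the test, for example endothelial-like against mesothelial-like cells, where the 95% interval of the log2 difference ran from -1.66 to 1.24.

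Bmp15 (ENSMUSG00000023279, chromosome X, 6314107 to 6320721), the X-linked paralogue of Gdf9, had the same distribution with far fewer UMIs. It had 144 and 232 UMIs in germ-like cells, a level of 8.99 and 8.91. All other types together had 7 and 4. The levels in granulosa-like cells were 0.194 and 0.256, from 4 and 2 UMIs, and germ-like cells held 95.4% and 98.3% of all Bmp15 UMIs. The germ-like and granulosa-like values did not overlap, and their log2 difference was 5.29 (standard error 0.48, adjusted p = 1.61e-06). The other somatic types had at most 2 UMIs each over both libraries, too few for a fold change.

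A UMI of Gdf9 was present in 222 of 240 germ-like cells of replicate 1 (92.5%, exact 95% interval 88.4 to 95.5) and in 546 of 691 of replicate 2 (79.0%, 75.8 to 82.0). With every cell thinned to 2000 UMIs the shares were 45.2% and 43.4%. Cells under 2000 UMIs were left out by thinning, 12 and 87 of the germ-like cells, which left 228 and 604. Bmp15 was seen in 95 and 152 of all germ-like cells before thinning and in 1.32% and 0.993% of those left after it. Nearly every Bmp15-positive germ-like cell also had Gdf9, 95 of 95 in replicate 1 and 150 of 152 in replicate 2. The intervals cover counting error only. In granulosa-like cells Gdf9 was seen in 2.22% and 2.57% of cells, at median depths of 9812 and 9172 UMIs.

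The Gdf9 level of granulosa-like cells was 0.502% and 0.548% of that of germ-like cells. Dazl stood there at 0.62% and 0.60% of its germ-like level, Ooep at 0.44% and 0.94%, and Zp3 at 0.42% and 0.63%. Dppa3 was at 0.569% and 1.02%, Sycp3 at 0.597% and 1.34%, Figla at 0.703% and 1.14% and Ddx4 at 0.882% and 2.33%. Bmp15 was at 2.33% and 3.10%, from 4 and 2 UMIs. The Gdf9 ratio was above those of Ooep and Zp3 alone in replicate 1 and was the lowest of all in replicate 2. The source of these UMIs was not tested. In mesothelial-like cells Gdf9 was at 1.10% and 0.999% of its germ-like level. Dazl was there at 0% and 1.29%, Ooep at 0.362% and 0.823% and Zp3 at 0.199% and 0.672%. Dppa3 was at 0.409% and 0.796%, Sycp3 at 0.445% and 1.33%, Figla at 0.528% and 0.847% and Ddx4 at 1.01% and 2.39%. Bmp15 was at 3.66% and 2.66%, from 1 UMI in each library. Bmpr1b stood far above, at 59.0% and 44.3% of its germ-like level in granulosa-like cells.

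**Figure D1:**
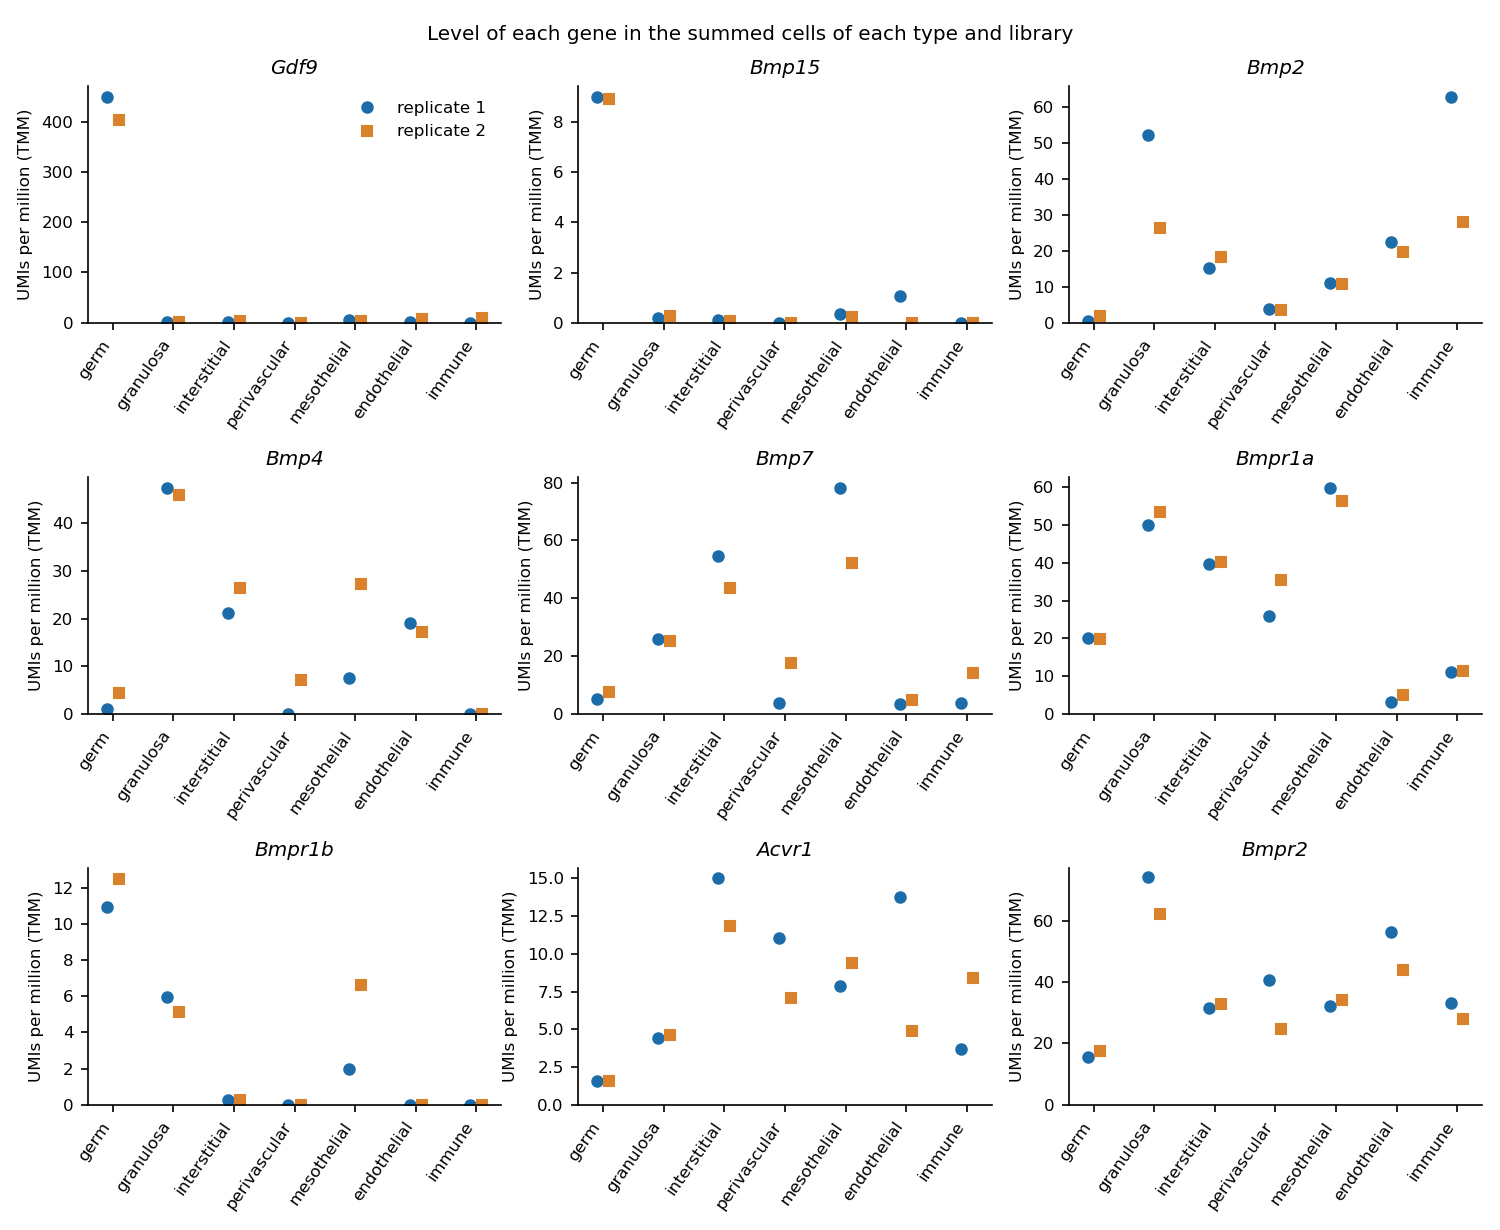
Level of each of the 9 genes in CPM after TMM scaling in the summed cells of each cell type, with 1 point per library. Gdf9 stands at 448 and 403 in germ-like cells and at 8.42 or below elsewhere, whereas Bmp2, Bmp4, Bmp7, Acvr1 and Bmpr2 are lowest or near the lowest in germ-like cells.

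The other ligands had their highest levels in somatic cells. Bmp2 (ENSMUSG00000027358, chromosome 2, 133552159 to 133562885) stood at 52.2 and 26.4 in granulosa-like cells, 62.6 and 28.1 in immune-like cells (from 17 and 10 UMIs), 22.3 and 19.5 in endothelial-like, 15.1 and 18.1 in interstitial-like and 11.1 and 10.8 in mesothelial-like cells. It was 0.437 and 1.81 in germ-like cells and rested on 1 UMI per library in perivascular-like cells. Germ-like cells lay below every somatic type in both libraries, and granulosa-like cells were above interstitial-like and mesothelial-like cells in both. The log2 difference was -5.01 (standard error 0.45, adjusted p = 4.61e-07) between germ-like and granulosa-like cells and 1.25 (0.36, adjusted p = 0.0137) between granulosa-like and interstitial-like cells. The latter had adjusted p = 0.0588 by DESeq2, and was 0.45 without replicate 1 and 1.81 without replicate 2, with no test. Granulosa-like and immune-like cells did not pass (95% interval of the log2 difference -1.01 to 1.28, immune-like minus granulosa-like), nor did the pairs that follow in the order, granulosa-like with endothelial-like and endothelial-like with interstitial-like cells.

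Bmp4 (ENSMUSG00000021835, chromosome 14, 46383520 to 46390669) was highest in granulosa-like cells, at 47.4 and 46.0, followed by interstitial-like cells at 21.3 and 26.4. It stood at 19.1 and 17.1 in endothelial-like cells, at 7.53 and 27.3 in mesothelial-like cells and at 0.874 and 4.30 in germ-like cells. No UMI was found in immune-like cells of either library. Germ-like cells were below all 4 of these types in both libraries, with a log2 difference of -4.07 from granulosa-like cells (standard error 0.55, adjusted p = 2.57e-05). The difference between granulosa-like and interstitial-like cells was 0.97 (95% interval -0.07 to 2.00, adjusted p = 0.13). With the library as a block it was 1.03 and passed (adjusted p = 0.0328), as did granulosa-like against mesothelial-like cells (1.54, adjusted p = 0.0148, against 1.37 and 0.0853 without the block). The mesothelial-like value was 7.53 in replicate 1 and 27.3 in replicate 2, so the size of that difference rests on the library.

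Bmp7 (ENSMUSG00000008999, chromosome 2, 172868012 to 172940321) had another order. Mesothelial-like cells were at 78.2 and 52.1, interstitial-like cells at 54.7 and 43.5, granulosa-like cells at 26.0 and 25.1, germ-like cells at 5.24 and 7.34 and endothelial-like cells at 3.19 and 4.88. The mesothelial-like and interstitial-like values overlapped between libraries, with a log2 difference of 0.40 (95% interval -0.14 to 0.95) that did not pass. Granulosa-like cells lay below both, by 1.34 from mesothelial-like cells (standard error 0.26, adjusted p = 0.00236) and by 0.94 from interstitial-like cells, where the adjusted p was 0.00898 and the difference was just under the 2-fold limit. Germ-like cells were 2.01 below granulosa-like cells (standard error 0.27, adjusted p = 1.54e-05).

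The cells that held most UMIs of a ligand differed between the libraries. Granulosa-like cells held 81.7% of Bmp2 UMIs in replicate 1 and 33.4% in replicate 2, and interstitial-like cells 12.2% and 48.3%. For Bmp4 the granulosa-like share was 77.7% and 34.8%. Interstitial-like cells held 40.1% and 53.3% of Bmp7 and mesothelial-like cells 16.6% and 16.9%. Granulosa-like cells numbered 1665 and 622. Each held on average 0.586 and 0.577 UMIs of Bmp4, but 0.645 and 0.331 of Bmp2.

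**Figure D2:**
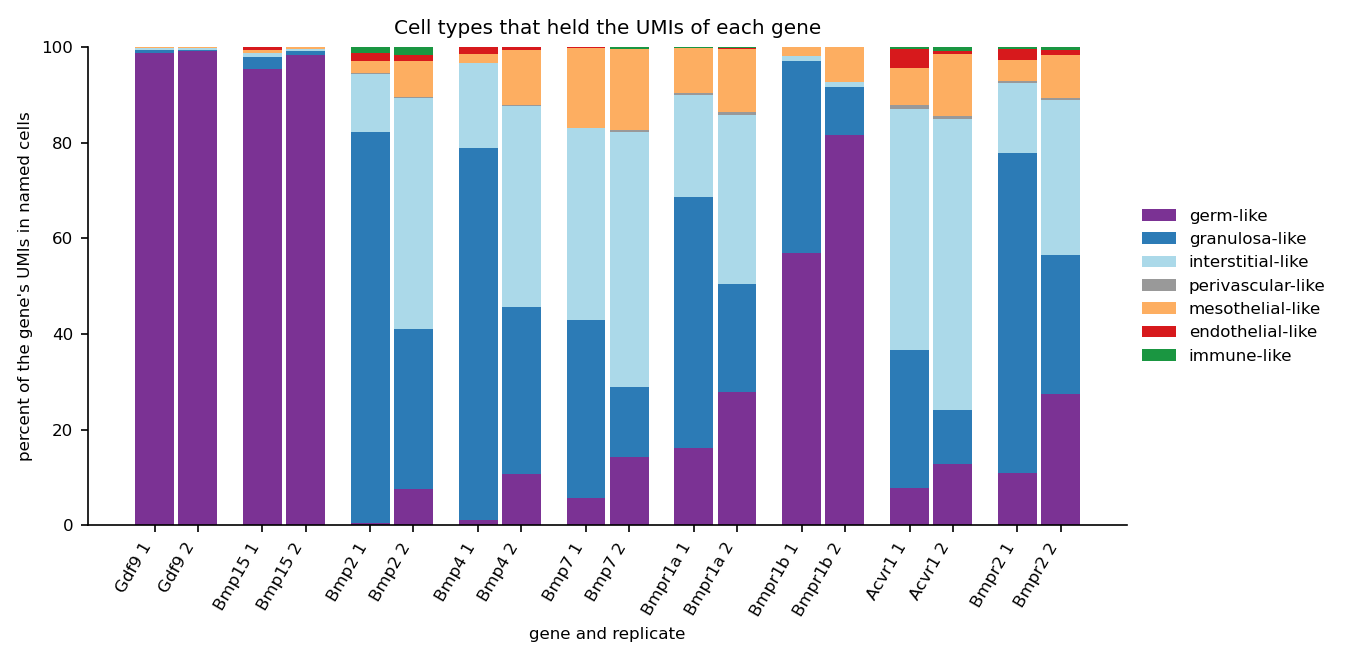
Percent of each gene's UMIs, among named cells, that lay in each cell type, with 1 stacked bar per gene and library. Gdf9 and Bmp15 bars are germ-like from 95.4% to 99.1%, whereas granulosa-like cells fill 81.7% and 33.4% of the Bmp2 bars and 77.7% and 34.8% of the Bmp4 bars.

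The type I receptors had 3 distinct distributions. Bmpr1a (ENSMUSG00000021796, chromosome 14, 34410734 to 34503341), the receptor best known for BMP2 and BMP4, stood at 59.9 and 56.5 in mesothelial-like, 50.01 and 53.4 in granulosa-like, 39.8 and 40.1 in interstitial-like and 19.98 and 19.9 in germ-like cells. Endothelial-like cells had 3.19 and 4.88, from 3 and 2 UMIs. None of these groups overlapped, but granulosa-like cells did not pass the test against mesothelial-like cells (95% interval of the log2 difference -0.49 to 0.15) or interstitial-like cells (0.06 to 0.68, adjusted p = 0.0587). Germ-like cells were 1.37 below granulosa-like cells on the log2 scale (standard error 0.15, adjusted p = 2.26e-06), and 2.42 above endothelial-like cells (standard error 0.35, adjusted p = 5.33e-05).

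Bmpr1b (ENSMUSG00000052430, chromosome 3, 141837136 to 142169425), the type I receptor that BMP15 uses, was the only receptor of the 4 with its highest level in germ-like cells, at 10.9 and 12.5, from 175 and 325 UMIs. Granulosa-like cells had 5.97 and 5.12, from 123 and 40 UMIs, and mesothelial-like cells 1.96 and 6.65, from 6 and 29 UMIs. Interstitial-like cells had 0.283 and 0.244, from 3 and 4 UMIs among 1397 and 2498 cells. No UMI was found in endothelial-like cells, 0 of 60 and 0 of 33 cells, which by the limit of 3 counts allows up to 5% and 9.09% of these cells to carry a UMI and sets no limit on cells expressing the gene, nor in perivascular-like or immune-like cells. Germ-like values lay above all others. The germ-like minus granulosa-like difference was 1.07 (standard error 0.39, adjusted p = 0.0289), just past the limit. It missed the limit on fold or on p in 6 of the alternative analyses with a test, with log2 differences of 0.78 to 0.98 in those. Without replicate 2 it was 0.87, also under the fold limit, and without replicate 1 it was 1.13, with no test. After thinning Bmpr1b was not tested. Granulosa-like cells exceeded interstitial-like cells by 4.34 (standard error 0.58, adjusted p = 1.66e-04). Granulosa-like and mesothelial-like cells overlapped and did not pass (95% interval of the log2 difference -0.72 to 1.32).

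Acvr1 (ENSMUSG00000026836, chromosome 2, 58388644 to 58567157), a type I receptor known for BMP7, showed nearly the reverse pattern. It stood at 15.02 and 11.8 in interstitial-like, 7.86 and 9.41 in mesothelial-like, 4.42 and 4.61 in granulosa-like and 1.56 and 1.58 in germ-like cells. Endothelial-like cells had 13.8 and 4.88, from 13 and 2 UMIs, and overlapped with interstitial-like and mesothelial-like cells. The other 4 groups were apart. Interstitial-like cells exceeded granulosa-like cells (log2 difference granulosa-like minus interstitial-like -1.57, standard error 0.29, adjusted p = 8.33e-04), and granulosa-like cells exceeded germ-like cells by 1.51 (standard error 0.32, adjusted p = 7.82e-04). The interstitial-like and mesothelial-like levels did not differ past the threshold (95% interval -0.04 to 1.28).

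Bmpr2 (ENSMUSG00000067336, chromosome 1, 59763400 to 59879014), the type II receptor shared by BMP15, GDF9 and the other BMPs, was found in every type. Granulosa-like cells had 74.2 and 62.1, endothelial-like cells 56.3 and 44.0, mesothelial-like cells 32.1 and 34.2, interstitial-like cells 31.6 and 32.9 and germ-like cells 15.7 and 17.6. Germ-like cells were below and granulosa-like cells above each of the other groups in both libraries. The germ-like minus granulosa-like difference was -2.03 (standard error 0.17, adjusted p = 2.86e-07) and the granulosa-like minus interstitial-like difference 1.08 (0.17, adjusted p = 1.96e-04). Granulosa-like against endothelial-like cells (95% interval of the log2 difference -0.04 to 0.85) and interstitial-like against mesothelial-like cells (-0.42 to 0.35) did not pass.

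These levels are shares of a cell's transcripts, and germ-like cells held many more UMIs. Per cell, Bmpr1a had 1.33 and 0.75 UMIs in germ-like and 0.619 and 0.67 in granulosa-like cells, and Bmpr2 had 1.05 and 0.664 against 0.918 and 0.78. Bmpr2 was seen in 144 of 240 and 270 of 691 germ-like cells and in 53.0% and 45.0% of granulosa-like cells. After thinning to 2000 UMIs the shares were 3.51% and 3.15% against 13.8% and 10.3%. UMIs of Bmpr2 and of at least 1 of the 3 type I receptors were seen together in 27.6% and 24.0% of granulosa-like cells, 7.80% and 6.41% of interstitial-like cells, and 23.8% and 24.4% of mesothelial-like cells. In germ-like cells the share was 54.2% and 31.7%. Germ-like cells had the greatest median depth, and that of mesothelial-like cells was 12262 and 11082 UMIs. After thinning the order turned, with both seen in 0.439% and 0% of germ-like cells (1 of 228 and 0 of 604) and in 1.63% and 1.49% of granulosa-like cells. Interstitial-like cells were then at 0.360% and 1.02%. Mesothelial-like cells were at 0.541% and 0.352%, from 1 cell in each library, and no longer stood above interstitial-like cells in both libraries.

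**Figure D3:**
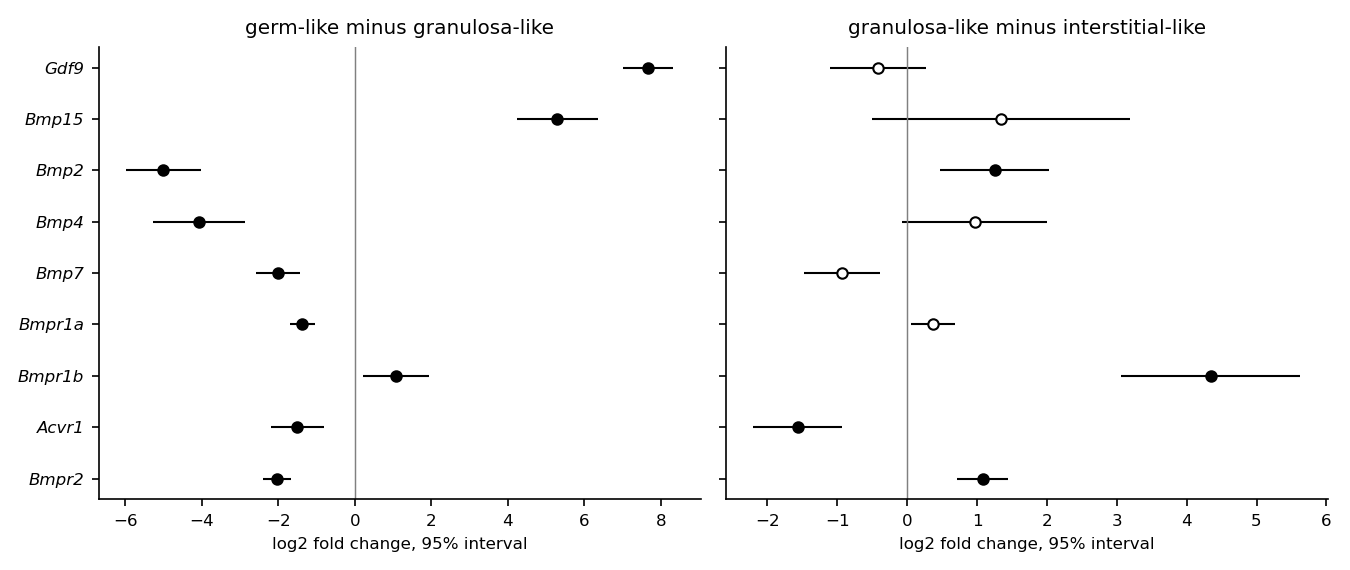
Log2 fold change of each gene with its 95% interval (edgeR, 14 sums, 2 libraries per type), germ-like minus granulosa-like cells on the left and granulosa-like minus interstitial-like cells on the right. Filled points are past the threshold. On the left, Gdf9, Bmp15 and Bmpr1b lie above 0 and the other 6 genes below it.

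Over all genes, germ-like and granulosa-like cells differed widely: 28.5% of the 14268 genes tested were higher in germ-like cells and 29.2% lower, past an adjusted p of 0.05 and a 2-fold change. Of the 9 genes, 3 were higher and 6 lower. Against endothelial-like cells 29% of all genes were higher in germ-like cells and 20.2% lower, and Bmpr1a was among the higher. Between granulosa-like and interstitial-like cells, Bmp2, Bmpr1b and Bmpr2 were higher in granulosa-like cells (background 15.3%) and Acvr1 was lower (background 11.8%). Between granulosa-like and mesothelial-like cells, Bmp2 and Bmpr2 were higher in granulosa-like cells (background 7.45%) and Bmp7 was lower (background 8.21%).

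Each type was also set against the equally weighted mean of the log2 levels of the other 6 types. Types with 0 UMIs of a gene pull that mean far down. A gene called higher thus need not stand 2-fold above the plain mean level of the others. Bmpr1b was called higher in mesothelial-like cells at a mean of 4.31, beside 11.7 in germ-like and 5.55 in granulosa-like cells. It had 0 UMIs in endothelial-like, perivascular-like and immune-like cells. In germ-like cells 3 of the 9 genes were higher, Gdf9, Bmp15 and Bmpr1b, against 31.6% of all genes tested, and 4 were lower, Bmp2, Bmp7, Acvr1 and Bmpr2, against 17.3%. In granulosa-like cells 5 were higher, Bmp2, Bmp4, Bmpr1a, Bmpr1b and Bmpr2, against 15.5% of all genes, while 5.05% of all genes were lower. In interstitial-like cells Bmp4, Bmp7 and Acvr1 were higher, where 13.9% of all genes were and 4.08% were lower. In mesothelial-like cells Bmp7, Bmpr1a and Bmpr1b were higher, against 13.6% of all genes higher and 3.6% lower. In endothelial-like cells Bmp7 and Bmpr1a were lower, against 3.97% of all genes lower and 9.76% higher. In immune-like cells Bmp2 was higher, against 11% of all genes higher and 4.95% lower. In perivascular-like cells 5.84% of all genes were higher and 2.19% lower. There 0 of the 9 passed by edgeR or were higher by DESeq2, and 1 had an unadjusted p under 0.05. The small types held few UMIs, and several of the 9 genes were at 0 in them.

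Within the granulosa-like cells the ligands varied between clusters. Bmp2 stood at 85.9 and 124 CPM, without TMM scaling, in a cluster with Serpina1a, Calb1 and Egr4 among its leading genes (470 and 25 cells), and at 118 and 81.2 in a cluster with Ccl1, Egr3 and Cxcl10 among them (239 and 54 cells). It was 19.3 and 9.42 in a cluster led by Hsd3b1 and Amh (327 and 93 cells) and 18.4 and 9.71 in another with Inhbb and Amh among its leading genes (165 and 43 cells). The first pair lay above the second pair in both libraries without overlap. Amh, Inhbb and Hsd3b1 are genes known from the granulosa cells of growing follicles. The chemokine and immediate early genes of the second cluster are also known to respond to stress, and their part in its Bmp2 level was not tested.

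Bmp4 was highest in the cluster led by Serpina1a, at 75.1 and 112, and stood at 25.1 and 3.24 in the cluster with Inhbb and at 7.76 and 16.6 in a cluster led by Ly6d and Pcp4 (116 and 239 cells). That last cluster had the lowest Bmpr2 among granulosa-like clusters, 39.7 and 37.0 against 59.3 to 96.4 in the others, and the highest Bmp7, 54.3 and 37.7. It also had hardly any Bmp3, 0 and 0.377, while Bmp3 reached 70.5 and 35.5 in the cluster led by Serpina1a, of which it was itself a leading gene. Clusters were formed from the same cells, so these values are a description. The Bmp2 level of all granulosa-like cells was 52.2 in replicate 1 and 26.4 in replicate 2, and the cluster led by Serpina1a supplied 470 of 1665 granulosa-like cells in replicate 1 but 25 of 622 in replicate 2. Bmp4, highest in that cluster, had a mean of 46.7 in all granulosa-like cells (standard deviation 1.00 between libraries). The part of cluster makeup in these levels was not tested.

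**Figure D4:**
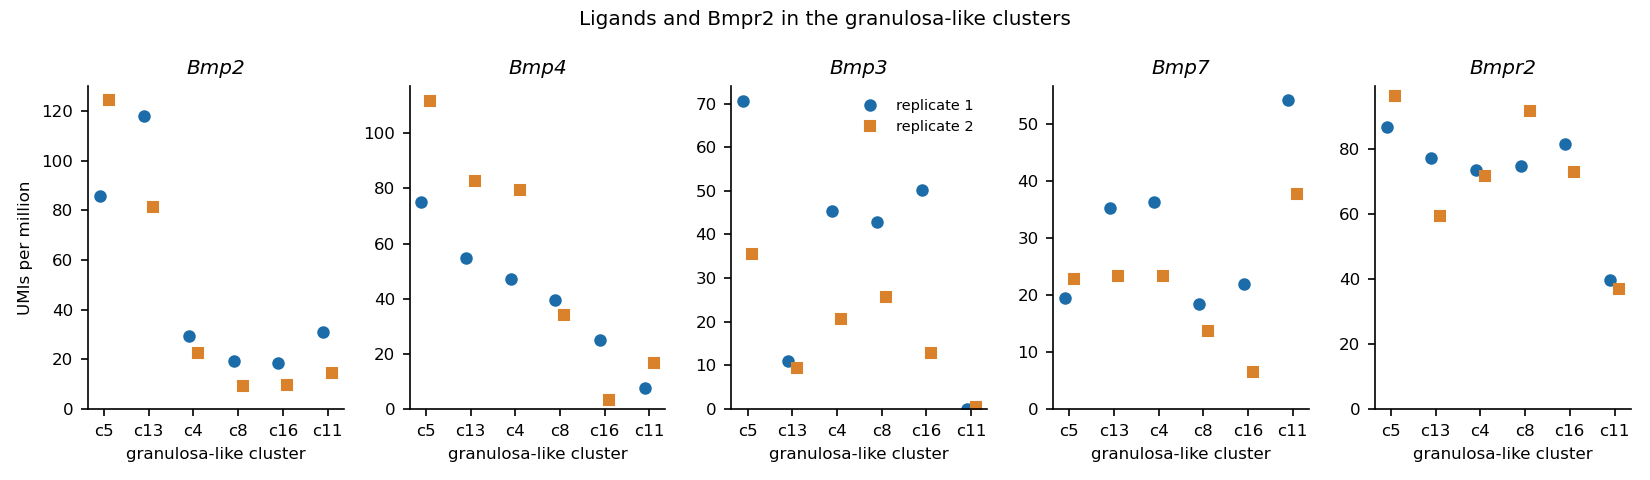
Level of Bmp2, Bmp4, Bmp3, Bmp7 and Bmpr2 in CPM in the 6 granulosa-like clusters, with 1 point per library (c5 is led by Serpina1a, c13 by H2-M2 and Ccl1, c4 by Cga and Colec11, c8 by Hsd3b1 and Amh, c16 by Inhbb and Amh, c11 by Ly6d and Pcp4). Bmp2 lies at 81.2 to 124 in c5 and c13 and at 31.1 or below in the other 4 clusters.

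Gdf9 also varied among germ-like cells. In the 216 and 459 germ-like cells with at least 10000 UMIs, its level per cell had a median of 359 and 313 CPM, with quartiles of 246 and 456 in replicate 1 and 199 and 433 in replicate 2. Gdf9 was at 0 in 5 and 16 of these cells and above 1000 in 5 and 7. These cells were split at the median of Zp3, a zona pellucida gene that rises with oocyte growth, a split chosen after the data were seen. Gdf9 stood at 546 CPM in the cells with more Zp3 and 271 in those with less in replicate 1, and at 481 and 252 in replicate 2, a ratio of 2.01 and 1.91. Bmp15 had ratios of 1.92 and 1.51. Both oocyte ligands were higher in the cells with more Zp3 in both libraries. Among 10516 genes with at least 50 UMIs in each library, 2.03% had ratios at least as far above 1 as those of Gdf9 in both libraries.

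The Id genes, of the list of feedback and target genes, went the other way. Id1, an inhibitor of basic helix-loop-helix factors and a direct BMP target, stood at 180 CPM in the cells with more Zp3 and 379 in those with less in replicate 1, and at 106 and 221 in replicate 2. The ratios were 0.474 and 0.482 for Id1, 0.514 and 0.508 for Id2 and 0.603 and 0.513 for Id3, and they were also below 1 for Id4 (0.673 and 0.623) and Msx2 (0.554 and 0.727). Smad7 was above 1, at 1.76 and 1.28, and Smad6 and Msx1 had 22 UMIs or fewer in every library. Ratios at least as far below 1 as those of Id1 in both libraries were found for 0.162% of the genes, those of Id2 for 0.276% and those of Id3 for 0.437%. Of the receptors, Bmpr1a had ratios of 0.654 and 0.773 and Bmpr2 of 1.02 and 1.02, while Bmpr1b went up in replicate 1 (1.24) and down in replicate 2 (0.792). Median depth was 94000.5 and 71292 UMIs for more and less Zp3 in replicate 1 and 69486 and 53091 in replicate 2, and the part of depth in these ratios was not tested. The cells on each side share a library and are not replicates, so no test was made.

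**Figure D5:**
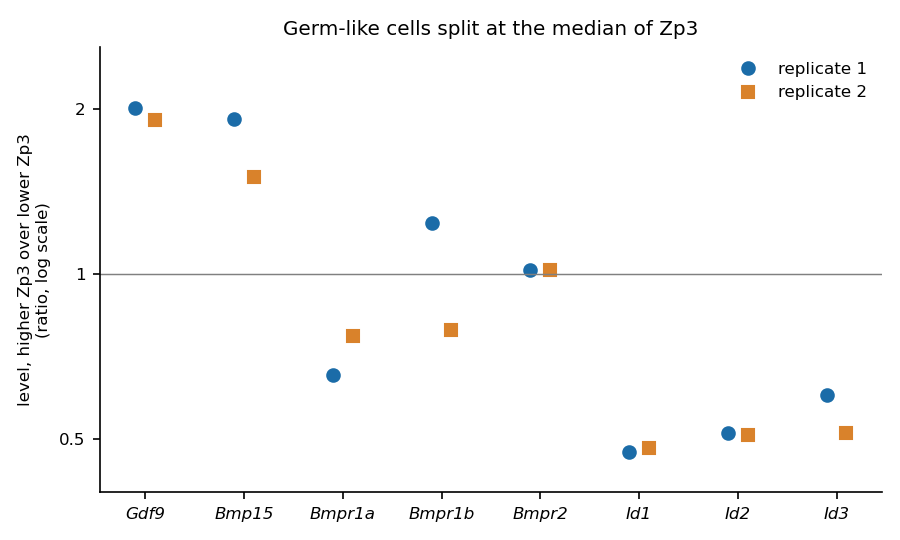
Ratio of each gene's level (log axis) in the germ-like cells above the median of Zp3 to that in the cells below it, with 1 point per library. Gdf9 and Bmp15 lie at 1.51 to 2.01 and Id1, Id2 and Id3 at 0.474 to 0.603 in both libraries.

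The germ-like cluster of 199 cells of replicate 1 and 11 of replicate 2 had a Gdf9 level of 444 in replicate 1, but its 11 cells of replicate 2 were at 3307, with Bmp15 at 60.1 and Id1 at 25.3. The 438 cells of replicate 2 in the other main germ-like cluster had 346, 7.64 and 156. The 11 cells were too few to be read as a group.

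Of 59 other BMP pathway genes, 44 had enough UMIs to be tested. Against the same mean of log2 levels, 20 were higher and 1 lower in interstitial-like cells and 12 higher and 5 lower in granulosa-like cells. In germ-like cells 3 were higher and 14 lower. Of all genes tested, 13.9% were higher and 4.08% lower in interstitial-like, 15.5% and 5.05% in granulosa-like and 31.6% and 17.3% in germ-like cells. The median log2 difference of the 44 was 1.15 in interstitial-like, 0.78 in granulosa-like and -0.96 in germ-like cells, beside 0.09, 0.19 and 0.34 over all genes. In mesothelial-like cells 8 were higher and 2 lower (13.6% and 3.6% of all genes), and in endothelial-like cells 10 and 1 (9.76% and 3.97%). In perivascular-like cells 8 were higher and 0 lower (5.84% and 2.19%), and in immune-like cells 3 and 5 (11% and 4.95%).

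Among the 4 other ligands tested, Bmp3, known as an antagonist of BMP signalling, was higher in granulosa-like cells, with 43.7 and 13.4 against 0.472 and 0.548 in interstitial-like cells (log2 difference 5.77, standard error 0.80, adjusted p = 2.16e-04). Bmp6 and Gdf10 were higher in interstitial-like cells. Bmp6 had 41.1 and 35.6 there against 2.48 and 5.51 in granulosa-like cells, and Gdf10 24.9 and 19.5 against 0.437 and 0.640. Bmp5 was higher in perivascular-like cells, 33.1 and 46.1 from 9 and 13 UMIs, and at 2.81 or below in every other type. In each of these the libraries did not overlap between the types compared.

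The genes listed as secreted antagonists and modulators differed in where they were highest. Some are antagonists, which bind BMPs and keep them from their receptors, but not all genes of the list are. Of 11 tested, 8 were higher in interstitial-like (background 13.9%), 5 in granulosa-like (15.5%) and 4 in mesothelial-like cells (13.6%), and 5 were lower in germ-like cells (17.3%). Twsg1 was in all 3 of these higher counts and stood highest in mesothelial-like cells, at 80.2 and 73.2, as did Crim1, at 57.3 and 50.7. Nog, the gene for noggin, had 9.07 and 9.32 in interstitial-like and 1.36 and 0.896 in granulosa-like cells (log2 difference granulosa-like minus interstitial-like -2.94, standard error 0.49, adjusted p = 7.82e-04). Chrd, the gene for chordin, had 7.37 and 7.13 against 0.874 and 0.640, and Sostdc1 6.42 and 5.97 against 0 UMIs in granulosa-like cells of both libraries. Chrdl1, for a chordin-like protein, was at 9.57 and 5.12 in granulosa-like cells and at 0.538 or below in all other types. Granulosa-like cells thus had higher levels of Bmp3 and Bmp2 than interstitial-like cells, and lower levels of Nog and Chrd (adjusted p = 0.000377 for Chrd). A gene could have enough counts to be tested through a single type. Its call as higher in that type is then not independent of being tested. Outside interstitial-like cells the highest means of Nog, Chrd and Sostdc1 were 1.13, 0.950 and 1.40. Outside granulosa-like cells those of Chrdl1 and of Bmper, from the same list, were 0.300 and 0.768.

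Of 9 other receptors and co-receptors tested, 4 were higher in interstitial-like cells (background 13.9%), 3 in endothelial-like (9.76%) and 2 in granulosa-like cells (15.5%). The perivascular-like type had 2 higher (5.84%) and the germ-like type 1 (31.6%). Lower calls numbered 3 for the germ-like type (17.3%), 2 for granulosa-like (5.05%), and 1 each for mesothelial-like (3.6%) and immune-like (4.95%). Eng and Acvrl1, an endothelial co-receptor and type I receptor for BMP9 and BMP10, were highest in endothelial-like cells. Eng stood there at 493 and 288 against 75.8 and 78.6 in interstitial-like cells, and Acvrl1 at 72.2 and 46.4 against 17.4 and 13.5. Acvr2b, a type II receptor, was at 24.7 and 28.6 in germ-like and 16.5 and 23.7 in granulosa-like cells and at 3.87 and 7.43 in interstitial-like cells. Rgma, a co-receptor, was higher in perivascular-like cells, 33.1 and 39.0 from 9 and 11 UMIs, and in interstitial-like cells, 18.9 and 25.03. Acvr2a had 0 UMIs in immune-like cells and 4.99 to 17.1 elsewhere. Tgfbr1, the type I receptor that GDF9 uses, passed in no type, with 65.5 and 48.8 in granulosa-like and 26.0 and 21.6 in germ-like cells.

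Among 5 SMADs tested, Smad3 was higher in granulosa-like cells, at 164 and 180 against 19.1 and 16.9 in interstitial-like cells (log2 difference 3.26, standard error 0.26, adjusted p = 8.52e-07). It transmits GDF9, activin and TGF-β signals. Smad1 was highest in endothelial-like cells, at 89.2 and 154 against 41.3 and 43.8 in interstitial-like and 14.5 and 14.1 in germ-like cells. Smad5 was lower in immune-like cells, 11.1 and 22.4, and in germ-like cells, 23.2 and 21.1, than elsewhere. Of 4 proprotein convertases, which cut the precursors of these ligands, Pcsk6 was at 333 and 388 in granulosa-like and 33.9 and 41.5 in interstitial-like cells (log2 difference 3.25, standard error 0.49, adjusted p = 1.54e-04). Pcsk5 was lower in germ-like cells, and Furin was higher in immune-like cells, at 66.3 and 87.0.

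The 8 feedback SMADs and target genes did not share a pattern. Id1 was highest in germ-like cells, at 271 and 166 against 57.7 and 133 in granulosa-like cells (log2 difference 1.20, standard error 0.39, adjusted p = 0.0135). Endothelial-like cells came next, with a mean of 136 (standard deviation 54.8), and overlapped with germ-like cells between libraries. Id1 was also called higher in endothelial-like cells against the other types. Id2 was at 685 and 460 in immune-like and 329 and 362 in interstitial-like cells against 16.4 and 17.4 in granulosa-like cells. Id3 was at 1031 and 716 in perivascular-like, 590 and 464 in endothelial-like and 311 and 326 in interstitial-like cells, against 59.6 and 111 in granulosa-like and 92.4 and 67.4 in germ-like cells. Granulosa-like cells were thus below interstitial-like cells in Id2 (log2 difference -4.36, standard error 0.28, adjusted p = 1.49e-07) and Id3 (-1.91, 0.29, adjusted p = 1.48e-04). Id1 did not pass between these types (-0.15, 0.39, adjusted p = 0.802), nor did Smad7 (-0.05, 0.23, adjusted p = 0.904), and Msx1 was higher in granulosa-like cells (2.96, 0.65, adjusted p = 0.00294).

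Smad6 and Smad7, the inhibitory SMADs, were low in germ-like cells. Smad7 had 3.31 and 3.804 in germ-like and 28.8 and 29.3 in granulosa-like cells (log2 difference -3.02, standard error 0.26, adjusted p = 3.56e-07), and Smad6 0.562 and 0.845 against 3.69 and 6.79. Smad6 was highest in mesothelial-like cells, at 15.7 and 14.2. Msx2 was higher in germ-like cells, at 4.43 and 5.69, and in mesothelial-like cells, at 2.62 and 5.51. Msx1 was higher in granulosa-like cells, at 11.1 and 4.10, and in endothelial-like cells, at 8.49 and 17.1 from 8 and 7 UMIs. Id4 had 0 UMIs in immune-like cells.

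Cumulus genes known to respond to GDF9 did not peak in granulosa-like cells. Of the 3 tested, Has2 and Tnfaip6 were higher in interstitial-like cells than in the mean log2 level of the other types. Tnfaip6 was at 16.1 and 10.6 there against 1.07 and 0.768 in granulosa-like cells, and Has2 at 2.08 and 1.22 against 0.340 and 0.128. The mean of Has2 was higher still in perivascular-like cells, 3.61 from 2 UMIs over both libraries. Has2 had 0 UMIs in germ-like, mesothelial-like, endothelial-like and immune-like cells. A response to GDF9 was not tested. Ptgs2 was higher in immune-like cells, from 3 and 10 UMIs.

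The genes most like each of the 9 in level were found by the correlation of log2 levels over 38 sums, 1 per cluster and library, which share libraries and cell types. For Gdf9 they were Ankrd36 (Pearson r = 0.94), Tsga10ip (0.93) and Gm973 (0.93), and for Bmp15 Zfp541 (0.95), Dnah9 (0.93) and Dmrtb1 (0.93). For Bmp2 they were Dusp6 (0.88), Jmjd1c (0.88) and Nfe2l2 (0.85), for Bmp4 Tsc22d1, Nbdy and Npr2 (0.89 to 0.88), and for Bmp7 Slc4a4, Gabrb1 and Auts2 (0.90 to 0.86). Among receptors, Bmpr1b was nearest to Nat8f4 (0.93), Bmpr2 to Znrf1 (0.94), Acvr1 to Cnrip1 (0.90) and Bmpr1a to Adamts19 (0.89). Gdf9 and Bmp15 had r = 0.87 with each other.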

How the data were processed

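Whole postnatal day 2 ovaries were profiled as 2 droplet single-cell libraries. The deposited counts are UMIs per gene and cell that the authors made with Cell Ranger 3.0.2 on GRCm38. The labels and the methods name different versions of the capture kit. Barcodes under 500 detected genes or over 10% of UMIs from mitochondrial genes were dropped, Scrublet doublets were removed (96 and 93 cells, at the threshold of replicate 1, since that of replicate 2 marked 2), and scanpy 1.11.5 gave 23 Leiden clusters without the genes reported here. Clusters were named from marker lists, and 1 cluster (11 and 120 cells) stayed unnamed. The naming rule was changed after the clusters were seen, so that leading genes of another type count only where that type has 3 detected markers.

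UMIs were summed over cell type and library (14 sums, 245031 to 27684859 UMIs) and fitted in edgeR 4.0.16 (R 4.3.3) by the quasi-likelihood test with TMM factors, after a filter on low counts. A gene could pass that filter through a single type, as Bmp15 did through germ-like, Bmp3 through granulosa-like and Bmp5 through perivascular-like cells. Its call as higher in that type is not independent of the filter. Called genes had a Benjamini-Hochberg adjusted p under 0.05 and a log2 fold change over 1. DESeq2 1.42.0 and other settings were alternatives. On simulated counts, a change counted as recovered at an adjusted p under 0.05 with any increase, without the 2-fold limit. For germ-like cells against the others 65% of 2-fold and 98% of 4-fold changes were recovered, and 7.91% of such hits were false. For endothelial-like cells 42% and 80% were recovered, and 2.4% of hits were false. The simulated types shared 1 profile and 1 spread, so these shares do not carry over to the calls reported here. Intervals of shares are exact binomial and cover counting error only. The sums with the same number come from the same library, which pairs them (correlations of library differences between types 0.013 to 0.271).

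The genes, lists and comparisons were chosen with earlier results of these data known. Of each pathway list up to 4 genes with the largest called change against the other types are named, with Id1, Id2, Id3, Smad6 and Smad7. Acvr2b, Tgfbr1, Twsg1 and Crim1 were added after their values were seen. Gene positions are from GENCODE M21.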

Additional observations from a re-analysis of the deposited data

Results flagged for a closer look

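The 120 cells of replicate 2 in the cluster that was given no cell type, with a median of 685.5 UMIs per cell, entered no comparison. They held 14 UMIs of Gdf9, 5 of Bmp4, 4 of Bmp7 and 5 of Bmpr2, each more than the 3 counts used here as the limit of detection. The germ list was the best match of this cluster, with 7 of its 9 markers detected. It was not named because its UMI count was low and no germ marker was among its leading genes. Those were S100a8, S100a9, BC100530, Ngp, Cma1, Camp, Hba-a1, Hbb-bs, Hbb-bt and Tpsab1. These cells are thus not shown to be germ cells, and the source of their Gdf9 UMIs was not tested. No background share was set beside these UMIs. Gdf9 stood there at 90.2 CPM and was seen in 11.7% of the cells. The 11 cells of replicate 1 in the same cluster had 1 UMI each of Gdf9, Bmp7 and Bmpr2.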

How the results depend on the processing

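Of 246 counts of called genes under alternative settings, 214 were within 1.5 times the reported count. With every cell thinned to 2000 UMIs, Bmp15, Bmpr1b and Acvr1 and all but 29 of the 44 pathway genes no longer passed the filter and were not tested. Called combinations of a gene and a pair of the 5 main types went from 48 of 90 to 30. Of the 48, 16 were no longer tested and 5 were lost, and 3 others were gained. Calls over all genes also fell in number in each of these pairs. Of 14268 genes, 4068 were higher and 4164 lower in germ-like than in granulosa-like cells, and 2096 and 2457 of 8888 after thinning. Between granulosa-like and mesothelial-like cells 1063 were higher and 1171 lower, and 575 and 592 after thinning. Of the 9 genes, those higher in germ-like cells went from 3 to 1 (2 not tested), those lower there from 4 to 2 (1 not tested) and those higher in immune-like cells from 1 to 0. Pathway genes that were higher went from 8 to 5 in mesothelial-like (3 not tested) and from 10 to 5 in endothelial-like cells (1 not tested). Of all 8888 genes tested after thinning, 2408 were higher and 1467 lower in germ-like cells. In mesothelial-like cells 990 were higher, in endothelial-like cells 606 and in immune-like cells 694. Against the sum of all other cells, 1 of the 9 genes was higher in mesothelial-like and 0 in immune-like cells. Of the pathway genes, 5 were higher and 34 lower in germ-like and 5 higher in mesothelial-like cells. With that reference 4791 of all 16126 genes were higher and 5034 lower in germ-like cells. In mesothelial-like cells 1705 of 15634 were higher, and in immune-like cells 1535 of 15390. Without the filter on low counts 1 of the 9 was higher in endothelial-like cells and 5 pathway genes in germ-like cells. Of all 22624 genes then tested, 1605 were higher in endothelial-like and 5814 in germ-like cells. By DESeq2 24 pathway genes were lower in germ-like cells, where 4043 of all 14268 genes were lower, against 2473 in the main fit.

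Leaving out a library left 1 per type, so counts were by fold alone, with no test. By fold alone more of all genes were also higher in every type, and lower in germ-like cells, than with the test. The counts that follow thus do not describe these genes alone. Of the 9 genes, 5 were then higher in mesothelial-like, 3 to 4 in endothelial-like and 1 to 2 in immune-like cells. Of the pathway genes, 10 to 11 were higher in germ-like, 20 to 25 in granulosa-like, 16 to 20 in perivascular-like, 16 to 17 in mesothelial-like, 17 to 18 in endothelial-like and 3 to 8 in immune-like cells, and 22 to 25 were lower in germ-like cells.

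With the library as a replicate block, 2 of 90 pairwise calls changed, those of Bmp4 in granulosa-like against interstitial-like cells (1.03) and mesothelial-like cells (1.54). Of 1230 pairwise values, 1136 counted as unchanged. In settings with a test this meant the same side of the threshold, and values that were not called could change sign. Without a library it meant a move within the spread of the values without either library, on either side of the threshold. Of the rest, 15 lost and 34 gained a call, 45 moved by more than that spread, and 0 called values reversed. The settings with the 5 main types alone, without an interstitial-like cluster, and without germ-like clusters of little RNA were chosen after seeing the data. Causes of these changes were not tested. Depth limits Bmp15 and the types with under 100 cells per library.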
